A study of Homo sapiens with 18 samples.

Results

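The genes described here are 35 chaperones, folding enzymes, degradation factors and stress sensors of the endoplasmic reticulum (ER), the compartment in which secreted and membrane proteins fold. They were taken by symbol from a list of known ER functions. All 35 were found among the 57736 rows of the deposited count table, and 34 were among the 15318 rows that passed the filter on low counts. DERL3, a degradation factor, did not pass. It held 86 counts over all 18 libraries and at most 15 in any of them.

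The cells were PEO1, a line derived from a human ovarian carcinoma of the high-grade serous type, and the study's title speaks of mutant p53. The 6 groups were cells transfected with an siRNA against p53 (sip53) and cells transfected with a control siRNA (siControl), each left without estradiol (0 h) or given 10 nM estradiol (E2) for 2 or 8 h. All groups had been kept for 48 h in phenol red-free medium with charcoal-stripped serum, which removes steroid hormones. Each group held 3 libraries, and nothing in the labels says that they came from separate cultures, so p-values measure the spread between these libraries, which may be technical. A single cell line and a single knockdown label were used, so effects of p53 loss and of the siRNA reagent cannot be told apart. No group without E2 was sampled at 2 or 8 h, so effects of E2 and of elapsed time or handling cannot be told apart either.

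Secreted proteins enter the ER through the SEC61 channel and are bound by HSPA5 (BiP) and its co-chaperones, by the lectins CALR and CANX, and by disulfide isomerases. When unfolded protein accumulates, the sensors ATF6, ERN1 (IRE1) and EIF2AK3 (PERK) set off the unfolded protein response. Cleaved ATF6 and the spliced form of XBP1 then raise transcription of the chaperone genes through ER stress response elements, and misfolded protein is sent back to the cytosol for degradation (ERAD).

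The promoters of 5 genes named in the results are shown, chosen because the ER stress response element can be read in them. RefSeq (GRCh38.p14) supplied a window of 250 bases before to 50 bases after the transcription start for 31 of the 35 genes. The element ERSE was searched on both strands as CCAAT and CCACG with 9 free bases between them, and the element ERSE-II as ATTGG and CCACG with 1 free base between them. ERSE was found in 6 of the 31 windows (19.4%), those of HSPA5, HSP90B1, CRELD2, CALR, CANX and ERO1B, and in 22 of all 27305 promoter windows (0.0806%). ERSE-II was found in 3 of the 31 (9.68%), those of HYOU1, SDF2L1 and HERPUD1, and in 0.0549% of all windows. ATF6, PDIA4, DNAJC3, DNAJC10, DNAJB9, ERO1A, SEL1L, SYVN1 and DERL2, also lower or higher in the results below, had neither element in their windows. Since ERSE begins with a CCAAT box, the share with CCAAT alone is also given, which was 80.6% of the 31 windows and 35.7% of all windows. The full estrogen response element, searched as GGTCA and TGACC with 3 free bases between them, was in 0 of the 31 windows and in 0.0659% of all windows. An element this rare would seldom appear in 31 windows, so no conclusion is drawn from its absence. Sites outside the windows were not searched.

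The 5 windows below run 5′ to 3′ along the gene's own strand, with the fixed letters of ERSE or ERSE-II in capitals. They are chr9:125241294-125241593 on the minus strand for HSPA5, chr12:103930160-103930459 on the plus strand for HSP90B1, chr19:12938359-12938658 on the plus strand for CALR, chr22:21642052-21642351 on the plus strand for SDF2L1 and chr16:56931892-56932191 on the plus strand for HERPUD1.
HSPA5: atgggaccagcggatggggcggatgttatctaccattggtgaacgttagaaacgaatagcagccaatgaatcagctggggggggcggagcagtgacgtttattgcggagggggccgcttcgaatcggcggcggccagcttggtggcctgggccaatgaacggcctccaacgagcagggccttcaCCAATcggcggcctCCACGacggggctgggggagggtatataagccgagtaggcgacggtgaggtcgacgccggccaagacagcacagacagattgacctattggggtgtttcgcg
HSP90B1: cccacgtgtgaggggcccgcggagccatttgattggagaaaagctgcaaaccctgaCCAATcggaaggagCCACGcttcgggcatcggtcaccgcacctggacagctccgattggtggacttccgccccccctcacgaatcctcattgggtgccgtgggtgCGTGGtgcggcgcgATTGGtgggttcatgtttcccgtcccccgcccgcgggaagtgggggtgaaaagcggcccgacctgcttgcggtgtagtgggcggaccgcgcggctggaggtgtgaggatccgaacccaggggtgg
CALR: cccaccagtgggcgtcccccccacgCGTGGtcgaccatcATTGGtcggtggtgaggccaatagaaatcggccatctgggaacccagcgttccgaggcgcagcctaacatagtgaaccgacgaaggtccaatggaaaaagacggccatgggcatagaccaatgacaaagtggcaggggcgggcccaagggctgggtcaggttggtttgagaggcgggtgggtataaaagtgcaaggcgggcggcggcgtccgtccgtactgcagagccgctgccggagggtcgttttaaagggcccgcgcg
SDF2L1: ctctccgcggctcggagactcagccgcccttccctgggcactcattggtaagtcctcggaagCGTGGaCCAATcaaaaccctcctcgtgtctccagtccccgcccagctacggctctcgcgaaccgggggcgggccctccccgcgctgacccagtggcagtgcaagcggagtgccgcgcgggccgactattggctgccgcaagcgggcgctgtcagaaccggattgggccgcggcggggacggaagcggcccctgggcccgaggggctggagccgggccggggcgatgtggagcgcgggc
HERPUD1: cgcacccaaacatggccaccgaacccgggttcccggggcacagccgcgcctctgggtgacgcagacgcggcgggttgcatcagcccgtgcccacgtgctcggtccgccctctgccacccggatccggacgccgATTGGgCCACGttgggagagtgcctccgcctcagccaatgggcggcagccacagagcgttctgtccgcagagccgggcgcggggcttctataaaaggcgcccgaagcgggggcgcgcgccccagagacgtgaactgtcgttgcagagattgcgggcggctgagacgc
HSP90B1 held 2 ERSE copies on opposite strands, at -194 to -176 and at -89 to -71 from the start, and HSPA5 held 1, at -66 to -48. CALR held 1 ERSE at -225 to -207, SDF2L1 1 ERSE-II at -188 to -178 and HERPUD1 1 ERSE-II at -117 to -107. PDIA3, DERL1, DERL3 and SEC24D had no entry in the promoter table. These matches are descriptions of the sequence, and binding was not measured.

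Total counts per library were 9225939 to 11307199 in sip53 and 7542457 to 10132570 in siControl, and levels are given as TMM-scaled CPM, which is counts relative to the library total, with the mean and SD over n = 3 libraries. Because reads start at transcript 3′ ends, counts do not scale with transcript length, and levels are not compared between genes. On the first principal component of all rows tested (24.1% of the variance) sip53 libraries lay at -3.10 to 44.0 and siControl libraries at -49.9 to -10.6. A pair of 0 h libraries stood apart. The sip53 0 h replicate 1 lay at -3.10, closest to siControl, and the siControl 0 h replicate 2 lay at -41.7 on the second component (10.8%) and had the lowest total count. The knockdown calls of members at 0 h are also given without each of them. All 10 epithelial and ovarian carcinoma markers were detected, with summed levels of 6308 to 7641 CPM in sip53 libraries and 5094 to 5637 CPM in siControl libraries. Of 6 fibroblast markers 4 were at 0 in all libraries, as were 3 of 5 leukocyte markers, and the measured endothelial markers summed to at most 1.07 CPM. The fibroblast markers summed to at most 13.3 CPM, and COL1A1 was at 4.64 to 13.3 CPM. The leukocyte markers summed to at most 19.9 CPM, with CD68 at 5.01 to 11.5 CPM and CD14 at 4.01 to 9.12 CPM. The part of the difference in epithelial marker sums in the results was not tested. In these bulk samples, fewer cells of a kind and less RNA per cell cannot be told apart.

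**Figure D1:**
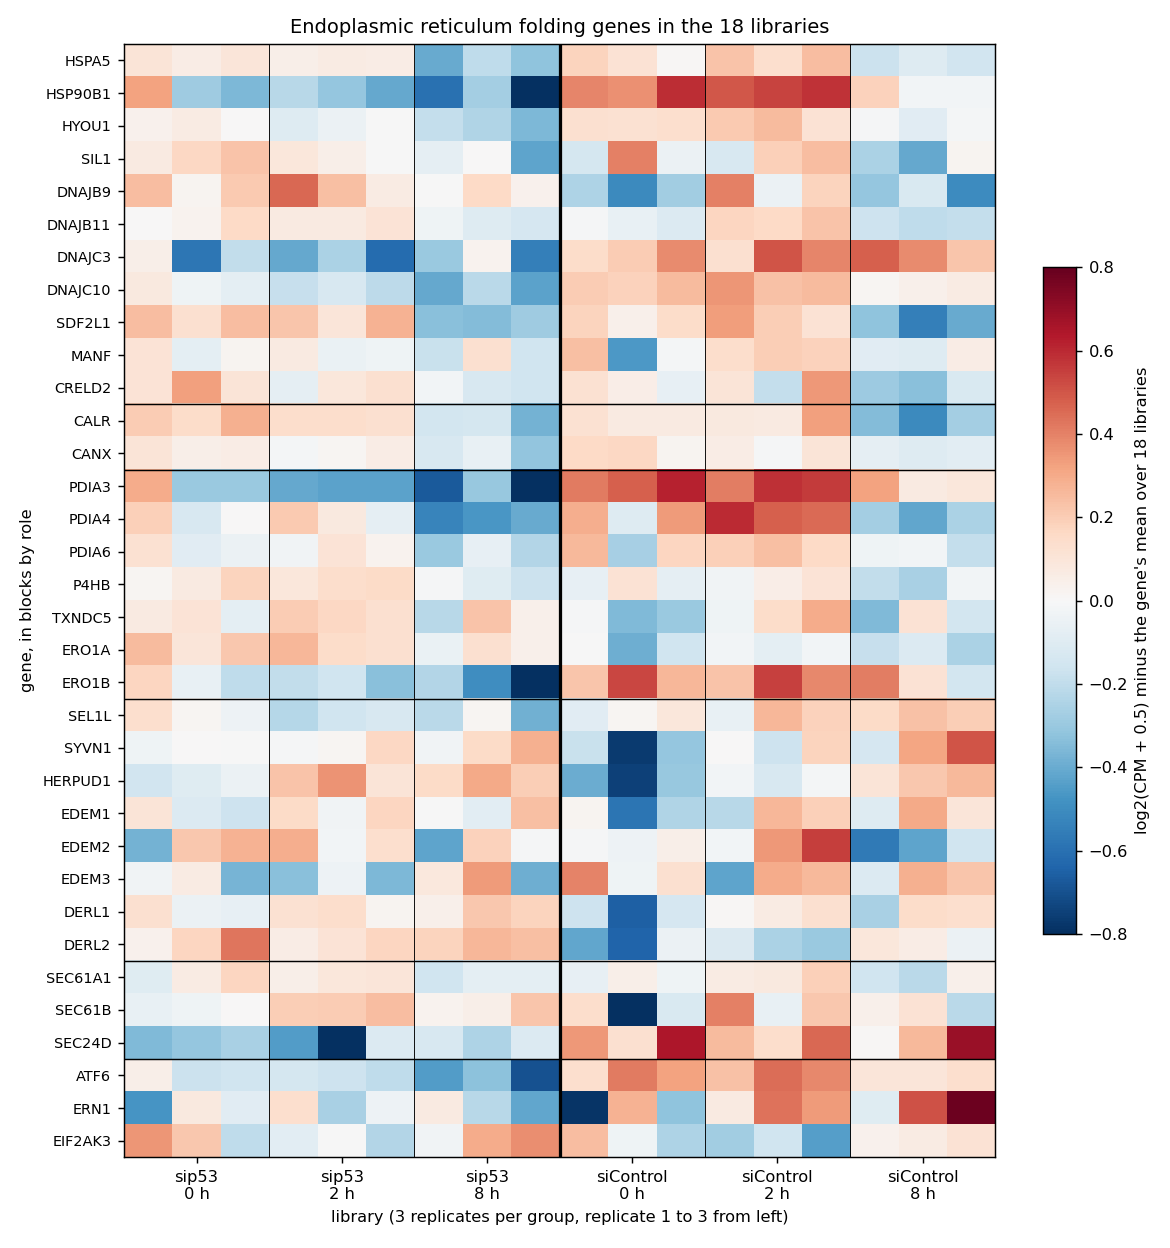
Level of each of the 34 tested genes (rows, in blocks by role) in each of the 18 libraries (columns), as log2 of CPM plus 0.5 minus the gene's mean over all libraries, with red above and blue below that mean and colours capped at 0.8 in either direction. HSP90B1, PDIA3 and ATF6 are low across the sip53 columns except in sip53 0 h replicate 1, where HSP90B1 is at 1049 CPM and PDIA3 at 329.8 CPM.

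With the p53 siRNA a subset of the folding genes was lower, while several abundant chaperones were not called. HSP90B1 (GRP94, the ER member of the HSP90 family), PDIA3 (ERp57, the disulfide isomerase that works with CALR and CANX) and the sensor ATF6 were lower in sip53 at each of the 3 times. The J-domain co-chaperones DNAJC3 and DNAJC10 and the oxidase ERO1B were lower at 2 and 8 h. HSPA5, CALR, CANX, P4HB and the SEC61 subunits were not called at any time. A gene was called when its adjusted p from edgeR's quasi-likelihood test, with Benjamini-Hochberg adjustment over all rows tested, was under 0.05.

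At 0 h, 3 of the 34 genes were higher in sip53 and 3 lower, where 9.12% of all rows tested were called (3.98% higher and 5.14% lower). At 2 h, 0 were higher and 8 lower, where 12.2% of all rows were called (4.42% higher and 7.79% lower). At 8 h, 0 were higher and 7 lower, where 8.96% of all rows were called (2.81% higher and 6.14% lower). The median log2 fold change of the 34 genes was 0.07, -0.09 and -0.04 at 0, 2 and 8 h, and that of all rows was -0.00247, 0.00206 and 0.0104. Leaving out sip53 8 h replicate 3 or siControl 8 h replicate 3 turned the 8 h median of the 34 genes to 0.03 in both cases. Averaged over the 3 times, 4 members were higher and 10 lower, where 34.6% of all rows were called (16.1% higher and 18.5% lower).

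HSP90B1 (chromosome 12, 103930107 to 103953645 on GRCh38, plus strand) had 1049, 688 and 653 CPM at 0 h in sip53, against 1101, 1080.1 and 1265 CPM in siControl. At 2 h it had 719, 677 and 631 CPM in sip53, against 1185, 1222 and 1249.7 CPM in siControl. At 8 h it had 554, 694 and 427 CPM in sip53, against 952, 827 and 826 CPM in siControl. The groups did not overlap at any time, and the first sip53 library at 0 h was close to the controls. On the log2 scale the differences were -0.53 ± 0.15, -0.85 ± 0.15 and -0.64 ± 0.15 (SE) at 0, 2 and 8 h, with adjusted p of 0.0318, 0.00123 and 0.0108. Without sip53 0 h replicate 1 the 0 h value was -0.77 (adjusted p = 0.00130), and without siControl 0 h replicate 2 it was -0.56 (0.0525). Reads from its processed pseudogene HSP90B2P came to 0.0885% of its own counts.

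HSPA5, the HSP70 chaperone of the ER (chromosome 9, 125234853 to 125241330, minus strand), averaged 1553 ± 26.5, 1523 ± 10.5 and 1184 ± 82.9 CPM in sip53 at 0, 2 and 8 h, and 1570.5 ± 90.6, 1684 ± 70.2 and 1327 ± 32.8 CPM in siControl (SD, n = 3 each). Its groups overlapped at 0 h and did not at 2 and 8 h. The log2 fold change was -0.02 (95% interval -0.17 to 0.14), -0.14 (-0.30 to 0.01) and -0.16 (-0.32 to -0.01), with adjusted p of 0.919, 0.232 and 0.184 (edgeR). HYOU1, the nucleotide exchange factor for HSPA5, passed the threshold only for the average over times (-0.19 ± 0.05, adjusted p = 0.00393).

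DNAJC3 (P58IPK, which also restrains EIF2AK3) had 33.2, 37.0 and 28.6 CPM at 2 h in sip53, against 48.3, 62.7 and 58.1 CPM in siControl, a log2 fold change of -0.78 ± 0.16 (adjusted p = 0.00305). At 8 h the value was -0.62 ± 0.16 (0.0159), and at 0 h it was -0.47 ± 0.16 and not called (0.0649). DNAJC10 (ERdj5, a reductase that opens disulfides before degradation) had 143, 149 and 140.5 CPM at 2 h in sip53, against 208, 191 and 194 CPM in siControl. It stood at -0.22 ± 0.09, -0.46 ± 0.09 and -0.39 ± 0.09 on the log2 scale at 0, 2 and 8 h (adjusted p = 0.1001, 0.00181 and 0.00725). The groups of both genes did not overlap at any of the 3 times. DNAJB9 (ERdj4, a co-chaperone that holds ERN1 inactive) went the other way, with 0.33 ± 0.10 for the average over times (adjusted p = 0.0112), but its exons overlap those of PNPLA8 and THAP5 on the other strand, which held 7105 and 5948 counts against 2563 for DNAJB9. The sources used here do not say whether the counting used strand, so the origin of those reads is uncertain. The other lumenal genes, SIL1, DNAJB11, SDF2L1, MANF and CRELD2, were not called, with log2 fold changes between -0.18 and 0.15 over the 3 times. Nor were the lectin chaperones, with CALR at 0.13, -0.03 and 0.15 and CANX at -0.05, -0.03 and -0.08.

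Among the disulfide enzymes PDIA3 had the lowest fold change of all 34 genes at 2 and 8 h. PDIA3 (chromosome 15, 43746392 to 43773279, plus strand) had 329.8, 218 and 218 CPM at 0 h in sip53, against 358, 374 and 411 CPM in siControl. At 2 h it had 202, 199 and 199 CPM in sip53, against 357, 403 and 396 CPM in siControl. At 8 h it had 168, 218 and 132 CPM in sip53, against 336, 282 and 286 CPM in siControl. The groups did not overlap at any time, and again sip53 0 h replicate 1 was the sip53 library nearest to the controls. The fold change of PDIA3 was -0.58 ± 0.15 (adjusted p = 0.0200), -0.94 ± 0.15 (0.000490) and -0.80 ± 0.15 (0.00233) on the log2 scale at 0, 2 and 8 h. Without sip53 0 h replicate 1 the 0 h value was -0.79 (0.00119), and without siControl 0 h replicate 2 it was -0.58 (0.0442).

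The ER oxidases were called in opposite directions, and for the average over times ERO1B was at -0.58 ± 0.12 (adjusted p = 0.000470) and ERO1A at 0.27 ± 0.06 (0.000735). ERO1B, which passes oxidising equivalents to the isomerases, had 10.9, 11.3 and 9.93 CPM at 2 h in sip53, against 14.9, 18.7 and 16.7 CPM in siControl. It stood at -0.38 ± 0.20, -0.64 ± 0.20 and -0.72 ± 0.20 on the log2 scale at 0, 2 and 8 h (adjusted p = 0.238, 0.0367 and 0.0288), and its groups did not overlap at any time. Its paralog ERO1A had 163, 146 and 159 CPM at 0 h in sip53, against 136, 104 and 122 CPM in siControl, and the log2 fold change was 0.37 ± 0.10 (0.0229). It was 0.35 without sip53 0 h replicate 1 (0.0383) and 0.28 without siControl 0 h replicate 2 (0.0970), which ended the call. ERO1A was 0.22 ± 0.10 at both later times and not called there (0.146 and 0.163), and its groups did not overlap at any time. PDIA4, a multi-domain isomerase, was lower at 2 h, with 97.1, 88.8 and 79.9 CPM in sip53 against 127, 117 and 115 CPM in siControl (-0.43 ± 0.12, adjusted p = 0.0163). PDIA6, P4HB and TXNDC5 were not called, with log2 fold changes between -0.16 and 0.25.

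**Figure D2:**
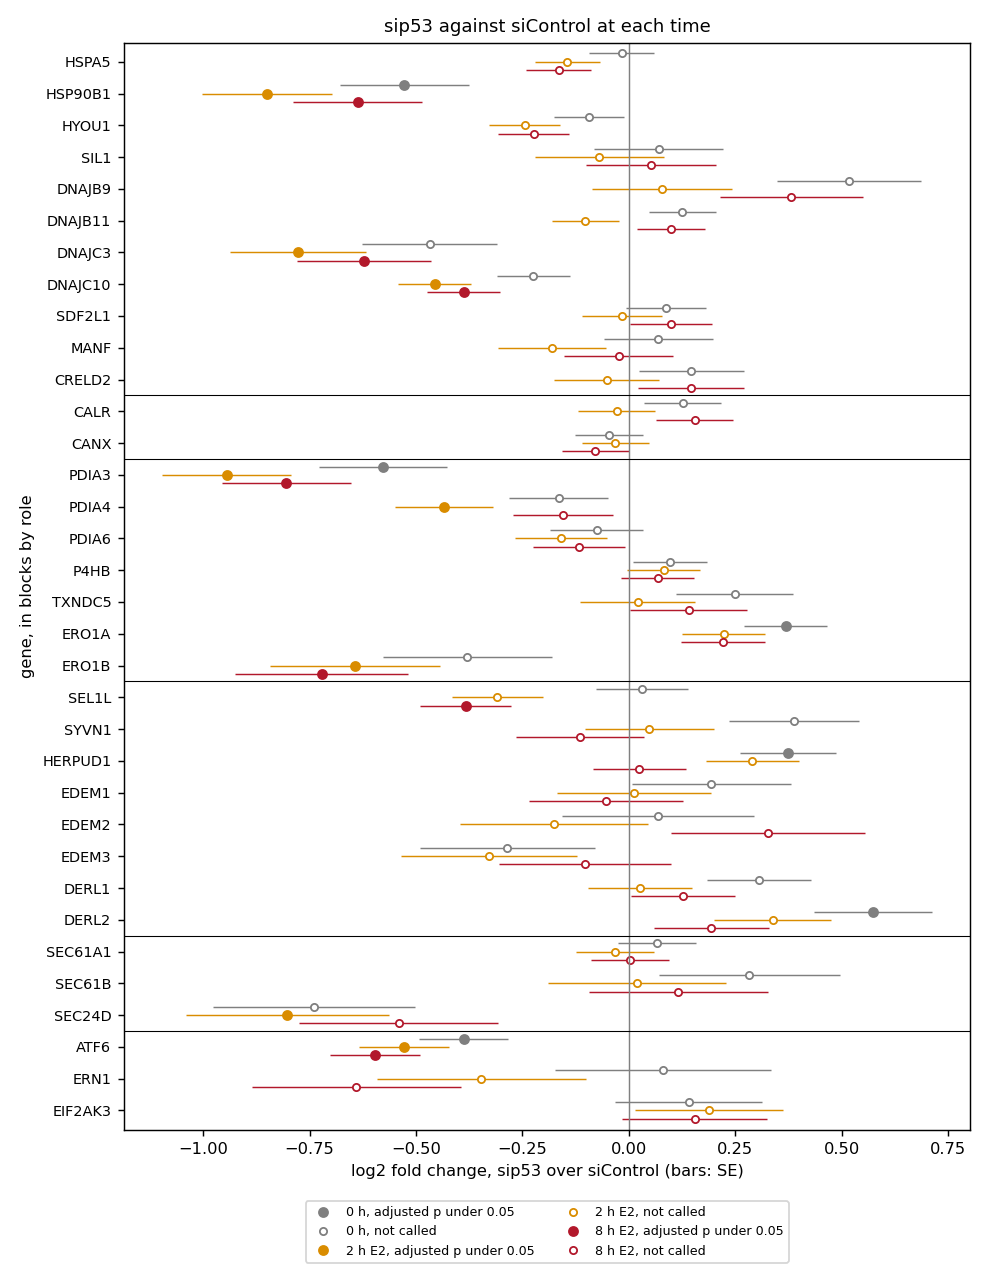
Log2 fold change of sip53 over siControl for each of the 34 genes at 0, 2 and 8 h (horizontal axis, bars give SE), in blocks by role, with filled points where the adjusted p was under 0.05. HSP90B1, PDIA3 and ATF6 have filled points left of 0 at all 3 times, and ERO1A, HERPUD1 and DERL2 have filled points right of 0 at 0 h.

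Of the 8 tested ERAD genes, HERPUD1 and DERL2 were higher in sip53 at 0 h and SEL1L was lower at 8 h. HERPUD1, which organises the ubiquitin ligase complex at the ER membrane, had 54.5, 56.5 and 58.7 CPM at 0 h in sip53, against 46.0, 35.9 and 48.9 CPM in siControl (log2 0.37 ± 0.11, adjusted p = 0.0400). DERL2, a derlin of the retrotranslocation machinery, had 32.4, 35.6 and 42.7 CPM in sip53, against 23.6, 20.1 and 30.7 CPM in siControl (0.57 ± 0.14, 0.0139). In both genes the groups did not overlap and siControl 0 h replicate 2 was the lowest library of all 6. Without that library HERPUD1 was at 0.27 (adjusted p = 0.172) and DERL2 at 0.46 (0.0613), and without sip53 0 h replicate 1 they were at 0.41 (0.0344) and 0.67 (0.00480). At 8 h HERPUD1 was at 0.02 ± 0.11 and DERL2 at 0.19 ± 0.14. DERL2 shares exon bases with MIS12 on the other strand, which held 3681 counts against 5594 for DERL2. SEL1L, the adaptor of the ligase SYVN1, had 85.1, 100.3 and 75.8 CPM at 8 h in sip53, against 110.3, 117 and 114 CPM in siControl, without overlap (-0.38 ± 0.11, adjusted p = 0.0274). The mannosidase-like factors EDEM1, EDEM2 and EDEM3, the derlin DERL1 and SYVN1 were not called, with log2 fold changes between -0.33 and 0.39.

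At the ER exit SEC24D, a cargo-binding subunit of the COPII coat, was lower at 2 h. It had 5.69, 3.79 and 7.31 CPM in sip53, against 9.54, 8.81 and 11.1 CPM in siControl, without overlap, and a log2 fold change of -0.80 ± 0.24 (adjusted p = 0.0293). The 0 h value was -0.74 ± 0.24 (0.0520) and the 8 h value -0.54 ± 0.23 (0.151). The channel subunits SEC61A1 and SEC61B were not called, with 8 h values of 0.00 (95% interval -0.19 to 0.19) and 0.12 (-0.32 to 0.55).

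Of the sensors only ATF6 was called. ATF6 (chromosome 1, 161766294 to 161964070, plus strand), the membrane-bound transcription factor cleaved on ER stress, had 108, 92.3 and 93.1 CPM at 0 h in sip53, against 115, 139 and 130.2 CPM in siControl. At 2 h it had 94.3, 92.8 and 90.4 CPM in sip53, against 123, 142 and 136 CPM in siControl. At 8 h it had 76.3, 82.8 and 63.9 CPM in sip53, against 111, 112 and 114 CPM in siControl. The groups did not overlap at any time, and the lowest siControl library of all 3 times, at 111 CPM, stood above the highest sip53 library, at 108 CPM. ATF6 stood at -0.39 ± 0.11, -0.53 ± 0.11 and -0.60 ± 0.11 on the log2 scale at 0, 2 and 8 h (adjusted p = 0.0248, 0.00250 and 0.00149). Without siControl 0 h replicate 2 the 0 h value was -0.31 (0.115), and without sip53 0 h replicate 1 it was -0.45 (0.0147). ERN1, the kinase and nuclease that splices XBP1, had 8 h values of 13.6, 11.02 and 9.59 CPM in sip53, against 12.1, 18.6 and 22.6 CPM in siControl, and the groups overlapped (log2 -0.64 ± 0.25, adjusted p = 0.103). EIF2AK3, the kinase that slows translation, was at 0.14 ± 0.17, 0.19 ± 0.17 and 0.15 ± 0.17 over the 3 times and was not called.

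Several of the lowered genes followed the same order of libraries, and so did some members that were not lowered. In sip53 at 8 h replicate 2 was the highest and replicate 3 the lowest for HSP90B1, PDIA3, DNAJC3, DNAJC10, ATF6 and SEL1L. The same held for CALR, CANX, SIL1 and EDEM3, which were not called in the knockdown. In sip53 at 0 h replicate 1 was the highest for HSP90B1, PDIA3, DNAJC3, DNAJC10, ERO1B and ATF6. It was also the highest for other members, among them HSPA5, CANX and the raised ERO1A. On the first principal component, which is built from all rows tested, sip53 8 h replicate 3 lay farthest from siControl at 44.0 and sip53 0 h replicate 1 closest at -3.10. The part of this shared variation in the results was not tested.

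**Figure D3:**
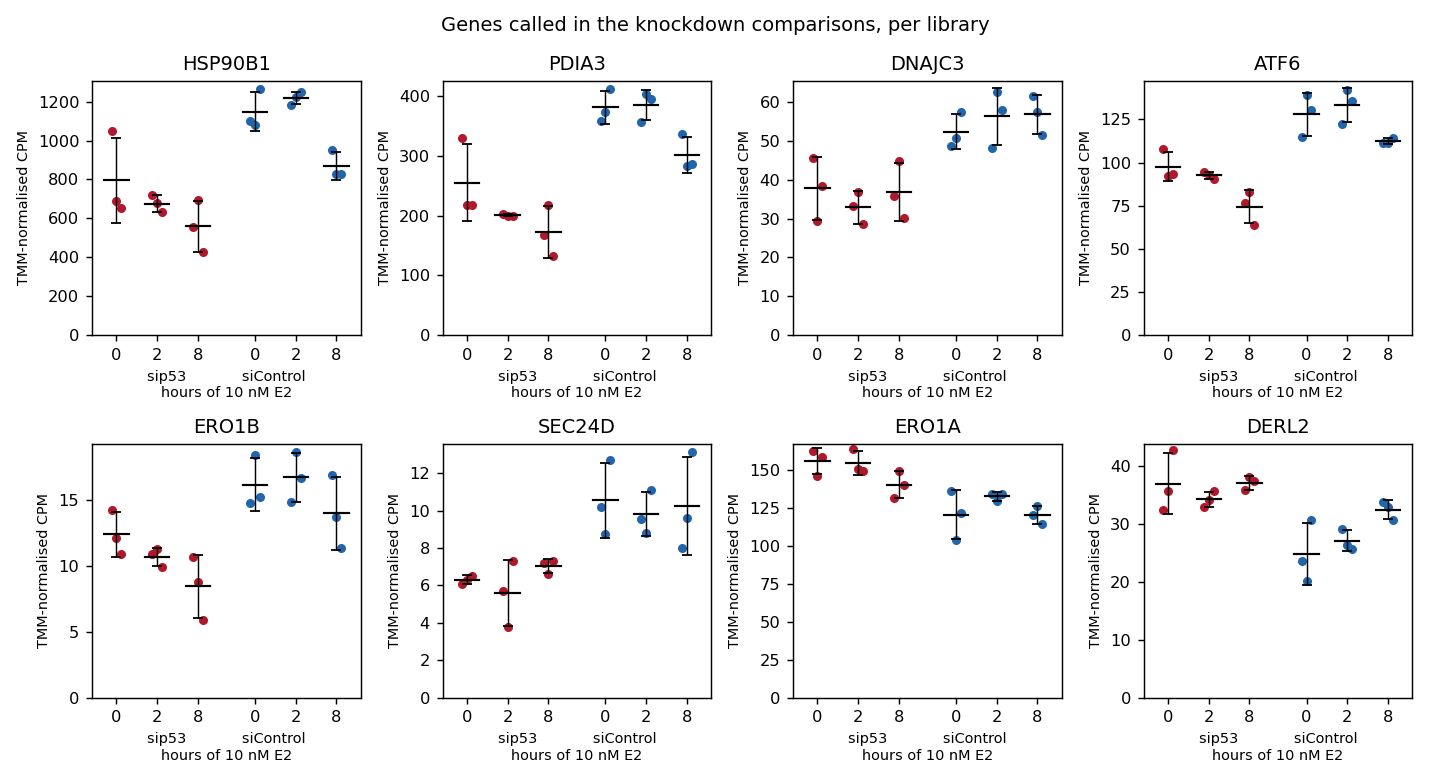
Level in CPM (vertical axes) of 8 genes called in the knockdown comparisons, in each library at 0, 2 and 8 h, with sip53 left of siControl, horizontal bars at the group mean and error bars for the SD. The ATF6 points of sip53 all lie at 108 CPM or below and those of siControl at 111 CPM or above.

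Leaving out single libraries ended many of these calls. At 0 h all 6 calls were lost without sip53 replicate 3 (adjusted p 0.0966 to 0.198). HSP90B1, PDIA3, HERPUD1 and ATF6 were lost without sip53 replicate 2 (0.101 to 0.147), and HSP90B1, PDIA3, ERO1A and ATF6 without siControl replicate 3 (0.0630 to 0.114). Without siControl replicate 2 every call but PDIA3 was lost (0.0525 to 0.172), and in a fit to the 0 h groups alone edgeR called none of the 6 (0.0668 to 0.176). At 2 h the calls of HSP90B1, PDIA3, DNAJC3, DNAJC10 and ATF6 were kept in all 6 such fits. PDIA4 was lost without sip53 replicate 3 (0.0996) or siControl replicate 2 (0.0504). ERO1B was lost in 5 of the 6, those other than without siControl replicate 1 (0.0778 to 0.161). SEC24D was lost without sip53 replicate 1 or 2 or siControl replicate 2 or 3 (0.0589 to 0.153). At 8 h the calls of PDIA3 and ATF6 were kept in all 6 fits. Without sip53 replicate 3 the calls of HSP90B1 (0.1002), DNAJC3 (0.129), DNAJC10 (0.0685), ERO1B (0.190) and SEL1L (0.198) were lost. HSP90B1 was also lost without siControl replicate 1 (0.0751), DNAJC3 without sip53 replicate 1 or siControl replicate 1 or 2 (0.0559 to 0.0903), ERO1B without siControl replicate 1 or 2 (0.0735 and 0.173), and SEL1L without any library but sip53 replicate 2 (0.0601 to 0.101).

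Transcript length and GC content moved with part of these results. With each library's trend on both removed, an alternative added after seeing the data, PDIA3 stayed at -0.50, -0.81 and -0.72 at 0, 2 and 8 h and HSP90B1 at -0.44, -0.69 and -0.53, all still called (edgeR, adjusted p of at most 0.0343). ATF6 was at -0.21 (0.168), -0.28 (0.0549) and -0.39 (0.0128). DNAJC10, whose longest annotated transcript of 20129 bases is the longest of the 35 genes, was at -0.08 at 2 h (0.633) and at 0.00 at 8 h (0.999). The next longest was that of SEL1L, with 7925 bases. Whether these longest transcripts are the ones expressed here was not tested. SEL1L at 8 h was at -0.16 (0.334), ERO1B at -0.43 at 2 h (0.173) and -0.55 at 8 h (0.0947), and SEC24D at 2 h at -0.70 (0.0597).

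The question for E2 was whether levels at 2 and 8 h differed from 0 h, in cells with and without the p53 siRNA. Without untreated groups at those times, E2 and elapsed time cannot be told apart. SDF2L1, CALR and PDIA4 were lower at 8 h in both arms. HSPA5, DNAJC10, PDIA3 and ATF6 were lower in sip53, and HERPUD1 and SYVN1 were higher in siControl. Of the 11 lumenal chaperones and co-chaperones 3 were called lower in sip53 and 1 in siControl. Of all rows tested 1.18% were called lower in sip53 and 0.823% in siControl. The 8 h and 2 h comparisons within an arm share their 0 h libraries.

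At 2 h no member was called in either arm. In sip53, 0 of 34 genes were called by edgeR and 2 had an unadjusted p under 0.05, where 0.307% of all rows were called (0.268% higher and 0.0392% lower). In siControl, 0 of 34 were called and 9 had an unadjusted p under 0.05, where 0.228% of all rows were called (0.228% higher and 0% lower). DESeq2 also called 0 members in each arm. Over all 15318 rows, 1139 had an unadjusted p under 0.05 in sip53 and 1748 in siControl (edgeR). The median log2 fold change of the 34 genes at 2 h was -0.03 in sip53 and 0.12 in siControl, and that of all rows was -0.00615 and -0.00598. HERPUD1 was at 0.33 ± 0.11 in sip53 (adjusted p = 0.419) and at 0.42 ± 0.11 in siControl (0.139), without overlap between times in either arm.

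At 8 h in sip53, 0 members were higher and 7 lower, where 2.74% of all rows were called (1.55% higher and 1.18% lower). At 8 h in siControl, 2 were higher and 3 lower, where 2.60% of all rows were called (1.78% higher and 0.823% lower). The median log2 fold change of the 34 genes was -0.16 in sip53 and -0.11 in siControl, and that of all rows was -0.00543 and -0.00123. By role, the 11 lumenal chaperones and co-chaperones had a median of -0.30 in sip53 and -0.18 in siControl, and the 8 ERAD genes of 0.13 and 0.34. In sip53 all 11 lumenal genes and all 7 disulfide enzymes were below 0, in siControl 8 of 11 and 6 of 7, and 6 of the 8 ERAD genes were above 0 in each arm. Over all 15318 rows 7805 were below 0 in sip53 and 7682 in siControl. The genes share the same libraries, so their signs are not independent.

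SDF2L1, a partner of HSPA5 in the lumen (chromosome 22, 21642261 to 21644298, plus strand), had 74.9, 74.3 and 77.5 CPM at 8 h in sip53, against 112, 104 and 112 CPM at 0 h. In siControl it had 75.6, 64.6 and 71.5 CPM at 8 h, against 107, 97.4 and 105 CPM at 0 h. The times did not overlap in either arm. SDF2L1 stood at -0.53 ± 0.09 on the log2 scale in sip53 (adjusted p = 0.00165) and at -0.55 ± 0.10 in siControl (0.00179), and both calls were kept whichever single library was left out.

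CALR, the soluble lectin chaperone of glycoproteins (chromosome 19, 12938578 to 12944489, plus strand), had 817, 823 and 696 CPM at 8 h in sip53, against 1043.5, 1005 and 1104.5 CPM at 0 h. In siControl it had 713, 637 and 749 CPM at 8 h, against 984, 953 and 952 CPM at 0 h. No 8 h library reached a 0 h library of its arm. The log2 fold change was -0.43 ± 0.09 in sip53 (adjusted p = 0.00813) and -0.46 ± 0.09 in siControl (0.00552). CANX, its membrane-bound counterpart, was at -0.23 ± 0.08 in sip53 and -0.20 ± 0.08 in siControl and was not called (0.136 and 0.185). The times of CANX did not overlap in either arm.

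PDIA4 had 58.0, 60.7 and 63.5 CPM at 8 h in sip53, against 95.8, 76.7 and 84.1 CPM at 0 h. In siControl it had 69.3, 62.9 and 70.4 CPM at 8 h, against 103, 78.1 and 106 CPM at 0 h. The times did not overlap, and the log2 fold change was -0.50 ± 0.12 in sip53 (adjusted p = 0.0201) and -0.51 ± 0.12 in siControl (0.0193). HSPA5 had 1108, 1272 and 1171 CPM at 8 h in sip53, against 1574, 1523 and 1562 CPM at 0 h, and in siControl 1300.4, 1364 and 1316.5 CPM at 8 h, against 1654, 1583 and 1474 CPM at 0 h. Its times did not overlap in either arm. The log2 fold change of HSPA5 was -0.39 ± 0.08 in sip53 (adjusted p = 0.00444), which no single left-out library ended, and -0.24 ± 0.08 in siControl (0.0909).

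In sip53 at 8 h the log2 fold change of PDIA3 was -0.57 ± 0.15 (adjusted p = 0.0424), that of ATF6 -0.39 ± 0.11 (0.0447) and that of DNAJC10 -0.34 ± 0.09 (0.0314). The same genes were at -0.34 ± 0.15 (0.248), -0.19 ± 0.11 (0.385) and -0.18 ± 0.09 (0.303) in siControl. These 3 sip53 calls and that of PDIA4 were lost without sip53 0 h replicate 1, the library near the controls. Without it PDIA3 was at -0.34 (0.298), ATF6 at -0.32 (0.213), DNAJC10 at -0.30 (0.142) and PDIA4 at -0.41 (0.107), while HSPA5, SDF2L1 and CALR stayed called. HSP90B1 was at -0.51 ± 0.15 in sip53 (0.0748) and at -0.40 ± 0.15 in siControl (0.161), not called in either.

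HERPUD1 (chromosome 16, 56932048 to 56944863, plus strand) had 67.3, 74.6 and 69.3 CPM at 8 h in sip53, against 54.5, 56.5 and 58.7 CPM at 0 h. In siControl it had 64.9, 70.3 and 72.4 CPM at 8 h, against 46.0, 35.9 and 48.9 CPM at 0 h. The times did not overlap in either arm, and the 8 h levels of the arms overlapped each other. HERPUD1 stood at 0.32 ± 0.11 on the log2 scale in sip53 (adjusted p = 0.145) and 0.67 ± 0.11 in siControl (0.00125). Without siControl 0 h replicate 2 the siControl value was 0.55 (0.0113). SYVN1 (HRD1), the ubiquitin ligase of ERAD, had 51.3, 58.3 and 63.8 CPM at 8 h in sip53, against 51.2, 52.4 and 52.2 CPM at 0 h, with overlap (0.15 ± 0.15, adjusted p = 0.701). In siControl it had 47.7, 65.4 and 74.5 CPM at 8 h, against 46.2, 30.5 and 42.1 CPM at 0 h, with the lowest 8 h library just above the highest 0 h one (0.66 ± 0.15, 0.0200). SYVN1 shares 398 exon bases with FAU, a ribosomal protein gene on the same strand that held 125466 counts against 9254 for SYVN1, so its counts are uncertain.

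**Figure D4:**
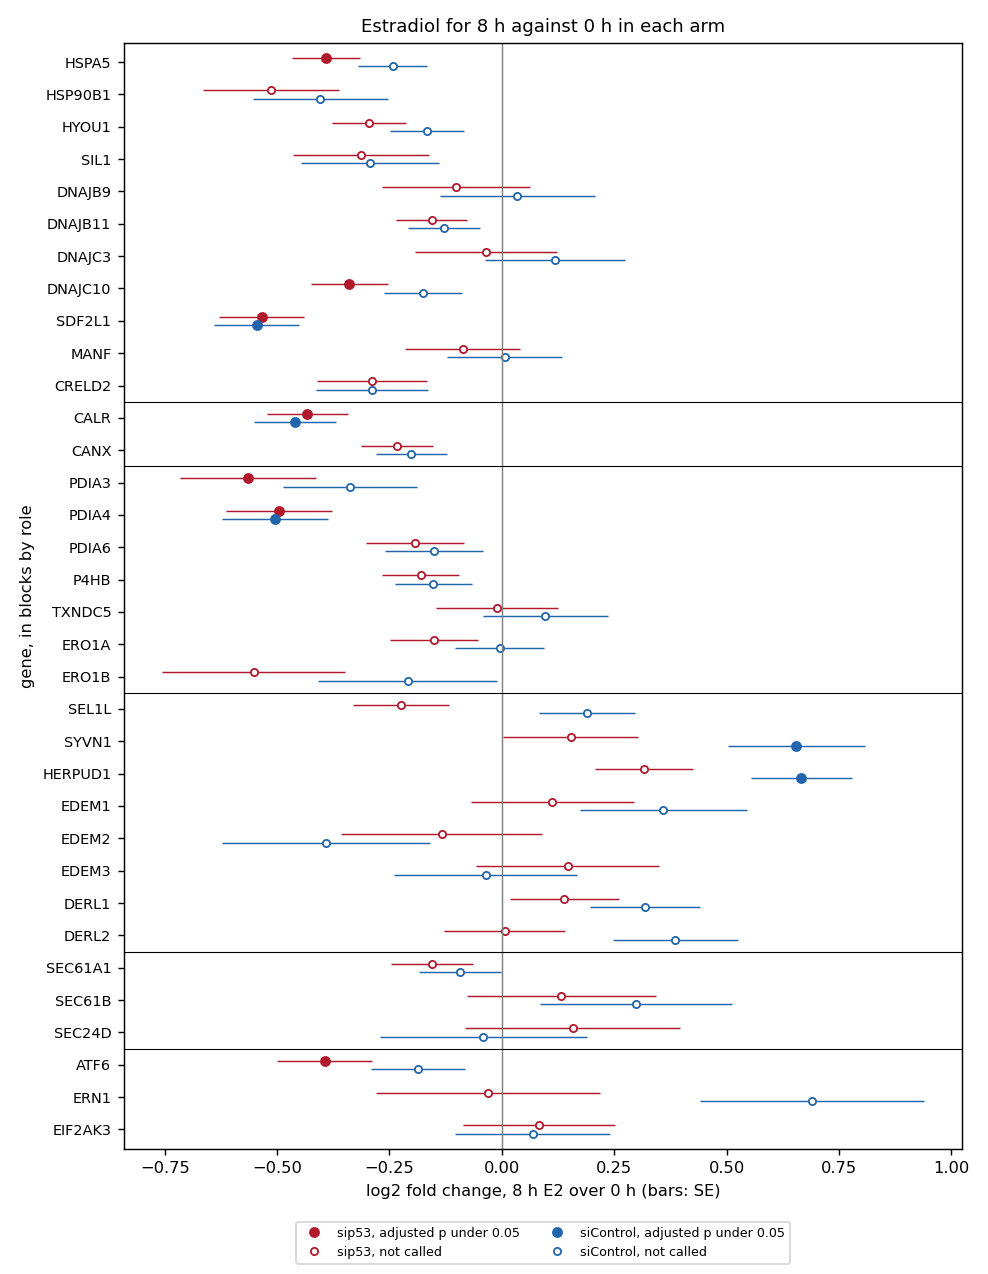
Log2 fold change of 8 h E2 over 0 h for each of the 34 genes (horizontal axis, bars give SE), with sip53 drawn above siControl for each gene and filled points where the adjusted p was under 0.05. SDF2L1, CALR and PDIA4 have filled points left of 0 in both arms, and SYVN1 and HERPUD1 have filled points right of 0 in siControl.

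Single libraries also decided some E2 calls. In sip53 CALR was lost without 0 h replicate 3 (adjusted p = 0.0567) or 8 h replicate 3 (0.0923), and PDIA4 and PDIA3 without 8 h replicate 1 (0.0644 and 0.114) or 8 h replicate 3 (0.0513 and 0.274). DNAJC10 and ATF6 were kept in sip53 only in the fit without 8 h replicate 2, and reached 0.185 and 0.300 without 8 h replicate 3. In siControl CALR was lost without 8 h replicate 2 (0.0752), PDIA4 without 0 h replicate 3 (0.0815) or 8 h replicate 2 (0.114), and SYVN1 without 0 h replicate 2 (0.126), 8 h replicate 2 (0.0927) or 8 h replicate 3 (0.121).

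Whether the E2 response of these genes differed between the arms was tested as an interaction, sip53 response minus siControl response. At 2 h 0 of 34 genes were called, where 0% of all rows were called, and 1 had an unadjusted p under 0.05. At 8 h 0 of 34 were called, again where 0% of all rows were called, and 3 had an unadjusted p under 0.05, namely SEL1L, SYVN1 and HERPUD1. Over all rows 451 and 583 had an unadjusted p under 0.05 at 2 and 8 h, and DESeq2 called 1 and 2 rows but none of the members. The 8 h difference was -0.41 for SEL1L (95% interval -0.73 to -0.10), -0.50 for SYVN1 (-0.95 to -0.06) and -0.35 for HERPUD1 (-0.67 to -0.03), each with an adjusted p of 0.999 from edgeR. For SDF2L1 the difference was 0.01 (-0.27 to 0.29), for CALR 0.03 (-0.24 to 0.29), for PDIA4 0.01 (-0.33 to 0.35) and for HSPA5 -0.15 (-0.37 to 0.08). The calls seen in a single arm are therefore not shown to differ between the arms. Of the 34 differences at 2 h, 32 were negative, with a median of -0.21 against -0.02 for all rows. Over all 15318 rows 8093 were negative. In the related lists given below, 25 of 31 further folding factors, 16 of 19 N-glycosylation genes and 19 of 25 translocation rows were negative. So were 16 of 23 ER to Golgi genes, 10 of 15 regulators and 10 of 19 further ERAD genes. All these differences draw on the same 0 h libraries. The median of the 34 was -0.17 without sip53 0 h replicate 1 and -0.16 without siControl 0 h replicate 2. It was -0.13 without siControl 2 h replicate 3.

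**Figure D5:**
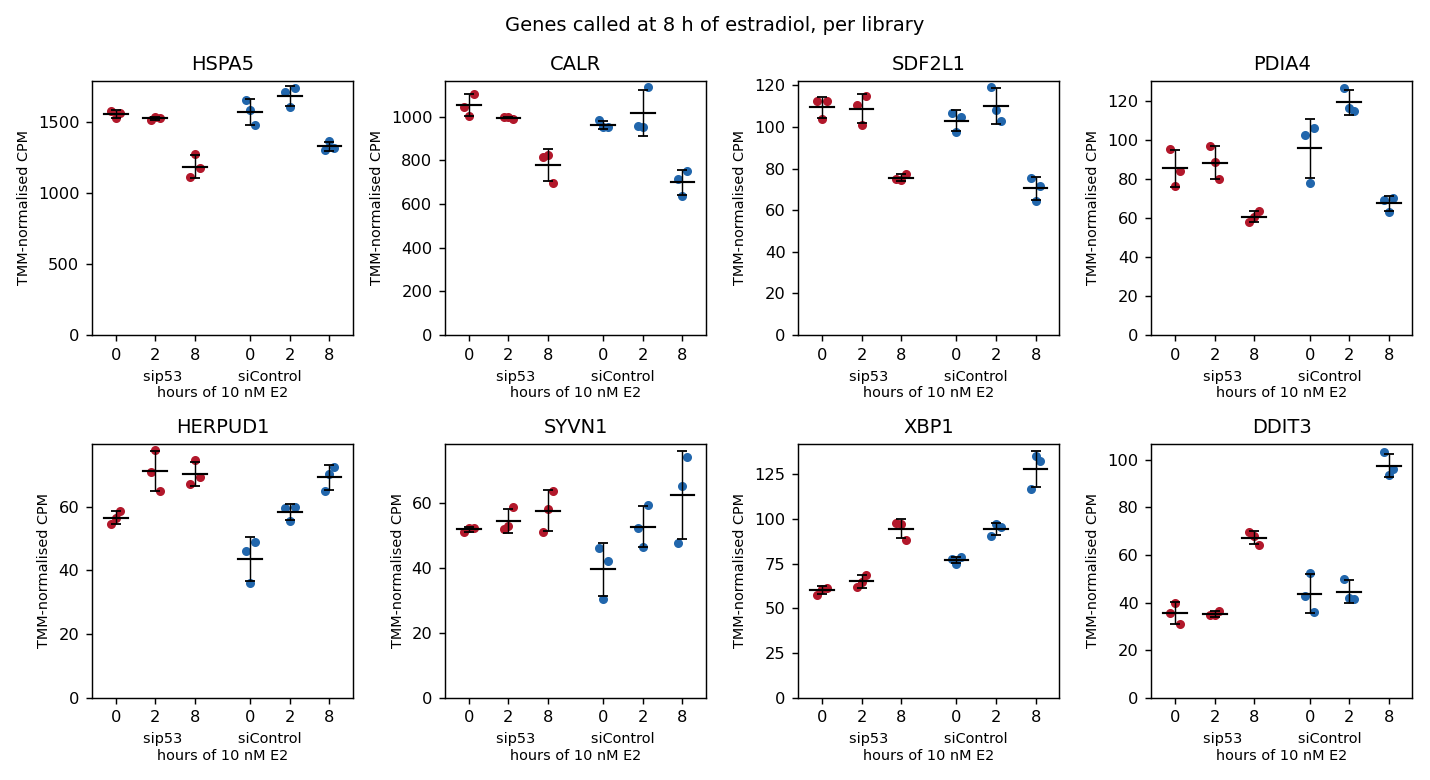
Level in CPM (vertical axes) of 6 members and 2 regulators called for 8 h of E2, in each library at 0, 2 and 8 h, with sip53 left of siControl, horizontal bars at the group mean and error bars for the SD. SDF2L1 at 8 h lies at 64.6 to 77.5 CPM in the 6 libraries of both arms, below every library at 0 h.

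Regulators and downstream genes of the unfolded protein response were counted as a list of 15. XBP1, the transcription factor whose spliced form binds chaperone promoters, had 97.8, 97.5 and 88.5 CPM at 8 h in sip53, against 57.5, 61.1 and 61.7 CPM at 0 h (log2 0.65 ± 0.09, adjusted p = 0.000113). In siControl XBP1 had 117, 135 and 133 CPM at 8 h, against 77.6, 75.1 and 78.7 CPM at 0 h (0.73 ± 0.09, 2.82e-05). DDIT3 (CHOP), a stress-induced transcription factor downstream of EIF2AK3 and ATF4, was higher by 0.92 ± 0.13 in sip53 and by 1.16 ± 0.13 in siControl (7.95e-05 and 3.39e-06). The times did not overlap for either gene in either arm. The counts of XBP1 do not separate its spliced and unspliced forms. ATF4, the translation-controlled activator of amino acid genes, was at 0.25 ± 0.10 in both arms and not called (0.240 and 0.204). Of the 15 genes in the list, 4 were higher and 0 lower at 8 h in sip53, where 1.55% of all rows were higher and 1.18% lower. In siControl 6 were higher and 0 lower, where 1.78% of all rows were higher and 0.823% lower. The 4 in sip53 were XBP1, DDIT3, SESN2 and CHAC1, and CHAC1, a glutathione-degrading target of ATF4, was named after its values were seen, at 1.51 ± 0.15 in sip53 and 1.86 ± 0.15 in siControl.

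With the knockdown XBP1 and PPP1R15A were lower at all 3 times and DDIT3 at 8 h. XBP1 was at -0.36 ± 0.09, -0.54 ± 0.09 and -0.44 ± 0.09 at 0, 2 and 8 h (adjusted p = 0.0194, 0.000935 and 0.00497), without overlap at any time. DDIT3 was at -0.30 ± 0.13 at 0 h (0.142), -0.33 ± 0.13 at 2 h (0.0897) and -0.54 ± 0.12 at 8 h (0.00795). PPP1R15A (GADD34), the phosphatase subunit that restores translation, had 51.4, 45.7 and 40.9 CPM at 8 h in sip53, against 72.2, 82.8 and 69.5 CPM in siControl (-0.70 ± 0.10, 0.000333). ATF4 was not called at any time, at 0.04 ± 0.10, 0.22 ± 0.10 and 0.04 ± 0.10. Averaged over the 3 times, where 16.1% of all rows were higher and 18.5% lower, 2 of the 15 genes were higher (CREB3, a membrane-bound factor cleaved at the Golgi, at 0.30 ± 0.06 and WFS1, an ER membrane protein, at 0.24 ± 0.07) and 8 were lower, with SESN2, a stress-induced sestrin, at -0.49 ± 0.07. The median was -0.28, against 0.01 for all rows and 0.01 for the 34 folding genes.

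For the wider secretory machinery the knockdown counts are averages over the 3 times, where 34.6% of all rows were called (16.1% higher and 18.5% lower). Of 31 genes listed as further folding factors 8 were higher and 6 lower. The list also holds BET1 and HM13, which are not folding factors. The membrane-bound thioredoxin-like TMX3 was at -0.64 ± 0.07, its relative TMX4 at -0.37 ± 0.08 and the co-chaperone DNAJC25 at -0.45 ± 0.11. The prolyl isomerase FKBP10 was at 0.30 ± 0.07. Of 19 N-glycosylation genes 8 were higher and 3 lower. The folding sensors UGGT2 (-0.61 ± 0.09) and UGGT1 (-0.27 ± 0.05), which re-glucosylate unfolded glycoproteins so that the lectin chaperones bind them again, were lower, and the oligosaccharyltransferase subunit DAD1 was higher (0.26 ± 0.05). Of 19 further ERAD genes 5 were higher and 4 lower, including the extraction factors UFD1 (0.34 ± 0.06) and VCP (0.27 ± 0.05) on the higher side and the lectin ERLEC1 (-0.41 ± 0.09) on the lower.

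Of 25 tested rows for translocation and signal peptide processing 6 were higher and 6 lower, in the same average over times, where 34.6% of all rows were called. SEC63, the J-domain partner of the SEC61 channel, had 229.8, 328 and 187 CPM at 8 h in sip53, against 402, 410.4 and 369 CPM in siControl, and its average over the times was -0.59 ± 0.09. SRP14, a subunit of the signal recognition particle, was at -0.65 ± 0.12 and its partner SRP9 at 0.32 ± 0.06. Of 23 genes of transport between ER and Golgi 7 were higher and 4 lower, with the COPII coat subunits SEC31A at -0.56 ± 0.08 and SEC23A at 0.49 ± 0.07. For E2 at 8 h the only calls in these 5 lists are named next. Over all rows 2.74% were called in sip53 and 2.60% in siControl. In sip53 the ERAD factor FAF2 was lower (-0.38 ± 0.09, adjusted p = 0.0289). In siControl DPAGT1, the first enzyme of the glycan chain, was at -0.51 ± 0.12 (0.0246), the prolyl isomerase FKBP2 at -0.38 ± 0.10 (0.0421) and 1 of the 3 rows that map to SRP19, another subunit of the signal recognition particle, at -1.33 ± 0.19 (0.000143). FAF2, FKBP2 and SRP19 were named after their values were seen.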

How the data were processed

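Per the labels' protocols, QuantSeq 3′ end libraries were prepared from 18 PEO1 samples. The expected counts deposited by the authors came from RSEM 1.3.3, and Bowtie2, cutadapt, MultiQC and the build hg19 are named per the submitters' processing notes. No source used here names the annotation. The deposited values were whole numbers, so rounding changed 0 of them. Rows carry transcript IDs, which were named with GENCODE (GRCh38). Of the 57736 rows 4796, with 0.635% of the counts, got no gene name and stayed in the fit.

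Genes were tested with edgeR 4.0.16 (R 4.3.3): TMM scaling, filterByExpr with a minimum count of 10, glmQLFit over all 6 groups and glmQLFTest, with Benjamini-Hochberg adjustment over 15318 rows and calls at an adjusted p under 0.05. The test script was first tested on simulated data. The SE is the log2 fold change divided by the square root of F. Overlap of groups was described for listed genes only. Its share over all rows was not counted, so a lack of overlap is not a call. Libraries of 1 group differed beyond counting noise (chi-square per degree of freedom 4.04 to 22.9), so none was merged. The biological coefficient of variation was 15.2%. DESeq2 1.42.0, other scalings, no filter, a replicate block, fits to the compared groups alone and fits without each library were alternatives, and a correction for length and GC content was added after seeing the data. The samples' numbers were not used to pair them.

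The members and all gene lists were chosen with earlier results of these data known. Every member called in any comparison, the sensors, HSPA5 and HSP90B1 are named. Of the other lists XBP1, ATF4 and DDIT3 are named, with up to 3 genes per direction by smallest adjusted p in the knockdown averaged over times. The siRNA's target itself is not reported here.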

Additional observations from a re-analysis of the deposited data

How the results depend on the processing

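Over the 47 single-gene calls, DESeq2, RLE and upper-quartile scaling each kept all 47, and no low-count filter kept 45. In fits to the compared groups alone, which the average over times does not have, 21 of 33 were kept. Members called by knockdown at 0 h were then 0, and 10 with DESeq2, against 6. For E2 at 8 h those fits called 4 members in sip53 and 3 in siControl, against 7 and 5. With no filter 1 member was called at 2 h of E2 in siControl, against 0. Leaving out single libraries gave 0 to 7 members for the knockdown at 0 h, 5 to 9 at 2 h, 2 to 7 at 8 h and 14 to 16 for the average, and 2 to 8 in sip53 and 2 to 5 in siControl for E2 at 8 h. Over all such fits 381 single-gene calls were kept and 69 lost. All 69 were calls at a single time or for E2, and none was for the average over times, which entered more of these fits. Over the whole table DESeq2 called 94 and 130 rows at 2 h of E2 in sip53 and siControl, against 47 and 35 by edgeR, and 633 and 681 at 8 h, against 419 and 399.

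With the trend on transcript length and GC content removed, DNAJC10 turned to 0.000265 at 8 h and 0.00283 for the average and SEL1L to 0.0118 for the average, on the log2 scale of the knockdown. Of the 47 calls 36 were kept, 8 lost and these 3 turned. The cause was not tested.

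With the replicate number as a block all 47 calls were kept, and 7 members were called at 0 h, 8 at 2 h and 7 at 8 h. Same-numbered libraries of different groups correlated at -0.145 to 0.209 in their deviations (median 0.0120), and 3 of 45 pairs exceeded 0.1. Libraries with different numbers correlated at -0.172 to 0.212 (median -0.00333), and 6 of 90 pairs exceeded 0.1. Only 7 of 18 libraries correlated best with their own number, so the numbers were not taken to pair the samples. With 3 libraries a group, a gene that was not called is not shown to be equal between groups.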
